A study of Mus musculus with 10 samples.

Results

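The 38 genes described here encode enzymes that remove reactive oxygen species, proteins that keep thiols reduced or hold iron and metals, and the regulators of the NRF2 response. They were taken by symbol from a list of antioxidant and NRF2-linked redox genes, and all 38 were among the 13091 genes of the deposited tables. The RNA came from neutrophils that were matured in culture from mouse bone marrow progenitors, in which HoxB8 fused to an estrogen receptor domain had been introduced to keep the cells dividing as clones. The strain was given as 129-SVEV. Wild-type Vim+/+ clones gave 4 libraries and clones without vimentin gave 6, and 5 libraries came from unstimulated cells and 5 from cells treated with LPS (25 ng/mL) for 1 hour. By group there were 2 unstimulated and 2 LPS-treated Vim+/+ libraries, and 3 unstimulated and 3 LPS-treated Vim-/- libraries. The Vim-/- cells are described as a knockdown in one label and as a knockout in the design text and the study's methods. Per the study's methods the progenitor lines are clonal, and differences between clones that are unrelated to vimentin enter the mean as well.

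The value used is the authors' mean normalized count, a single number per gene over the libraries of both genotypes and both treatments. It was identical in the 4 tables for all 13091 genes. Since the tables hold no value for a single library, sequencing depth is unknown and no SD or n can be attached to a gene. The remaining columns are the authors' own comparisons of genotype and of LPS, which were not used, and no difference between those groups is given here. The 10 libraries are unequally divided between the genotypes, so the mean leans to Vim-/- cells. *Vim* itself stood at a mean normalized count of 39926, a mixture of clones with and without the gene, and this does not check the genotype labels.

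Neutrophils make superoxide through the NADPH oxidase and, to a lesser degree, through mitochondria. Superoxide dismutases turn it into hydrogen peroxide, which catalase, glutathione peroxidases and peroxiredoxins reduce to water. Most peroxiredoxins are recycled by thioredoxin and glutathione peroxidases by glutathione, and the reductases of both systems draw electrons from NADPH. NRF2, encoded by *Nfe2l2*, is held low by KEAP1 and, when stabilized by oxidants, binds antioxidant response elements, where BACH1 acts as a repressor.

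Since longer transcripts collect more reads, levels were compared between genes only as the mean normalized count per kb of the longest transcript in GENCODE M21, on the GRCm38 build that corresponds to mm10. For 7 members (*Fth1*, *Prdx5*, *Prdx6*, *Glrx*, *Glrx2*, *Sod1* and *Gss*) that longest transcript retains an intron, and for *Prdx4* it is another transcript without a coding sequence. Their level per kb of the longest protein-coding transcript is therefore given as well, a choice made after the lengths were seen. Across 4 definitions of length (longest transcript, longest protein-coding transcript, median transcript and coding sequence) the highest level of a member was a median of 2.80 times its lowest. This range shows how far a level moves with the choice of length, and it is not an error of measurement. It is narrow where few transcripts are annotated, and it leaves out the counts without a correction for length. No other measure of uncertainty could be drawn from the values, and ratios between members are given below with this range. Levels and ranks without a range are per kb of the longest transcript.

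The antioxidant genes were among the more abundant messages of these cells. In level per kb, 34 of the 38 lay above the median of 309 over the 12023 genes with a length, and the median member stood at 2417. Of the members, 18 were in the top 10% of genes and 5 (*Ftl1*, *Fth1*, *Gpx1*, *Prdx5* and *Msrb1*) in the top 1%. The 4 below the median gene were *Prdx4*, *Txnrd2*, *Gss* and *Nqo1*. All 38 together held 2.05% of the normalized counts of the tables, of which the 2 ferritin genes made up the larger part at 1.22% of the tables. The members had a median coding sequence of 669 bases against 1380 for all genes that have one, and a median longest transcript of 2178 against 3201 bases.

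**Figure D1:**
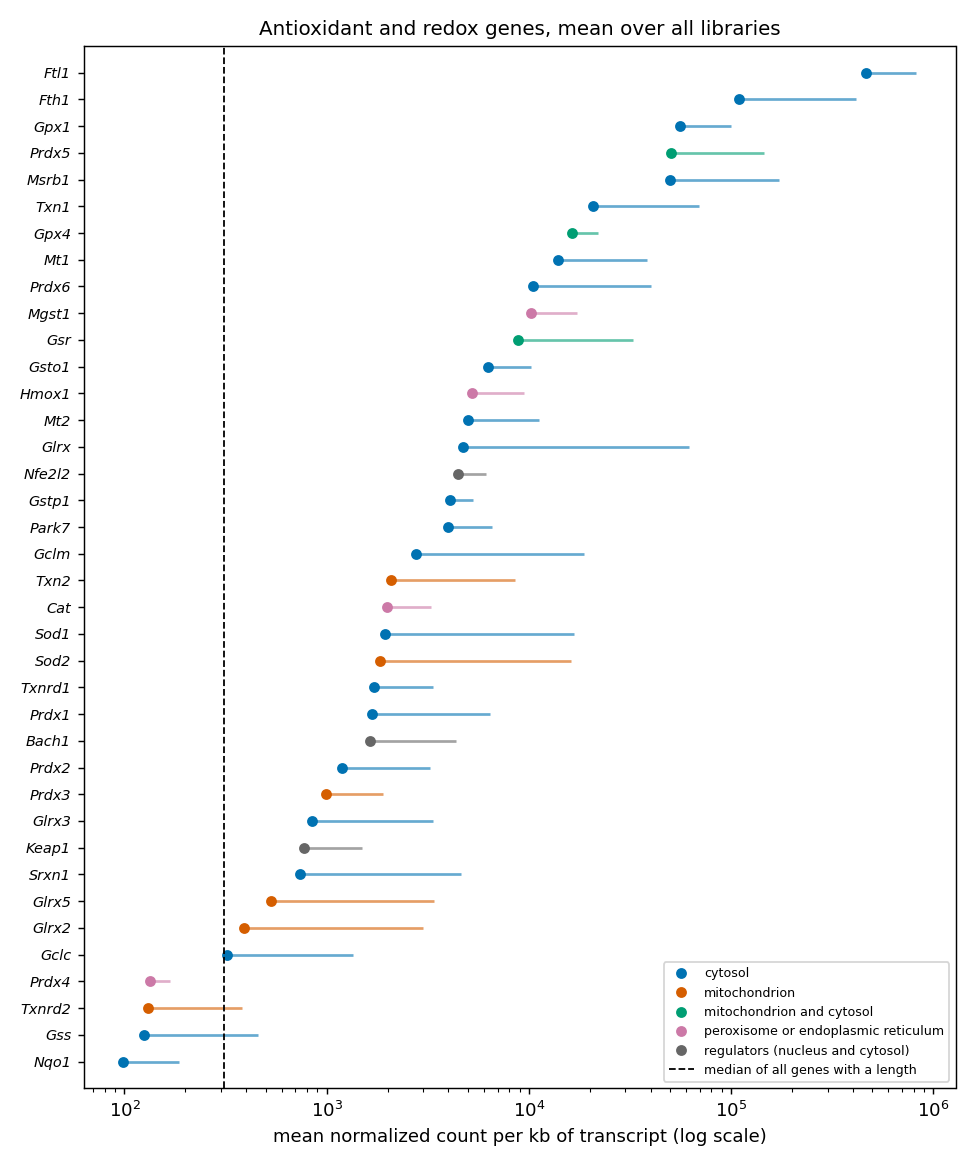
Mean normalized count per kb of the longest transcript (points, log scale) for the 38 genes, coloured by the place of the protein in the cell, with lines over the 4 definitions of length. The dashed line is the median gene at 309. The points run from 98.8 for Nqo1 to 465105 for Ftl1, and 34 lie to the right of the line.

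The dismutases were both well above the median gene. *Sod1*, the enzyme of the cytosol (chromosome 16, 90220754 to 90226329), had a mean normalized count of 7699. *Sod2*, the enzyme of the mitochondrial matrix (chromosome 17, 13006846 to 13040063), had 10810. Per kb they stood at 1939 and 1844, a ratio of 1.05. The ratio rested on the choice of transcript, however, and ran from 0.224 with the median transcript to 6.51 with the longest protein-coding transcript, where *Sod1* measures 641 bases and stood at 12011 per kb. Which of the dismutases had more transcripts per cell could not be decided from the mean.

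Among the glutathione peroxidases and catalase, *Gpx1*, the glutathione peroxidase of the cytosol, led with a mean normalized count of 59971 and a level of 55943 per kb (percentile 99.6 of genes). *Gpx4*, which reduces lipid hydroperoxides, stood at 16298 per kb, and *Cat*, the peroxisomal catalase, at 1978. The order of the 3 genes was the same under the 4 definitions of length, with *Gpx1* 3.22 to 4.65 times *Gpx4* and *Gpx4* 6.54 to 8.24 times *Cat*. Of the windows of 100 bases in the longest *Gpx4* transcript, 48.4% also occur in 2 annotated pseudogenes, so its count depends on how such reads were assigned.

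The 6 peroxiredoxins spread over more than 2 orders of magnitude. *Prdx5*, found in mitochondria, peroxisomes and the cytosol, had the highest level at 50676 per kb (73324 with the protein-coding transcript). *Prdx6*, the peroxiredoxin with a single catalytic cysteine, followed at 10519, and *Prdx5* was 3.62 to 6.50 times higher over the definitions of length. The classical cytosolic pair *Prdx1* and *Prdx2* stood at 1672 and 1191, and *Prdx3*, the matrix enzyme, at 995. *Prdx5* was thus 20.7 to 43.8 times *Prdx1*. *Prdx4*, the enzyme of the endoplasmic reticulum, was the lowest of the 6 at 134 (percentile 34.2), and *Prdx3* exceeded it by 7.15 to 11.4 times. *Srxn1*, the sulfiredoxin that repairs over-oxidized peroxiredoxins, stood at 736. Of the windows of the longest transcript, *Prdx2* shares 12.8% with 3 other genes, most with *Junb*, and *Prdx5* shares 10.5% with *Trmt112*.

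In the thioredoxin system the cytosolic gene was the higher member of each pair. *Txn1*, the thioredoxin of the cytosol, stood at 20828 per kb and the mitochondrial *Txn2* at 2077, and *Txn1* was at least 3.31 times higher over the definitions of length. The reductases that reload them were lower, *Txnrd1* at 1711 in the cytosol and *Txnrd2* at 130 in mitochondria, a ratio of 5.76 to 14.2. Each thioredoxin therefore exceeded its own reductase, *Txn1* by 9.45 to 20.6 times and *Txn2* by 15.9 to 36.1 times. *Msrb1*, a methionine sulfoxide reductase that takes electrons from thioredoxin, had 49695 per kb and ranked 5 among the 38, or 3 with the coding sequence. *Gpx1*, *Gpx4*, *Txnrd1*, *Txnrd2* and *Msrb1* carry a selenocysteine in the annotation, and they ran from 55943 for *Gpx1* to 130 for *Txnrd2*.

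Of the glutaredoxins, which use glutathione to reduce mixed disulfides or to handle iron-sulfur clusters, *Glrx* of the cytosol was highest at 4708 per kb and 14799 with the protein-coding transcript. *Glrx3* stood at 841, and the mitochondrial genes *Glrx5* and *Glrx2* at 531 and 391. *Glrx* exceeded *Glrx3* by 4.45 to 24.0 times. The order of *Glrx3* and *Glrx5* turned over with the definition of length, with a ratio from 0.757 to 1.70, and 13.2% of the windows of *Glrx3* occur in the pseudogene *Gm12669*.

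Glutathione is made in 2 steps, by glutamate-cysteine ligase and then by glutathione synthetase, and reduced again by glutathione reductase. *Gclm*, the modifier subunit of the ligase, stood at 2758 per kb, while *Gclc*, its catalytic subunit, stood at 320, close to the median gene. The modifier transcript was 8.61 to 32.7 times the catalytic one. *Gss*, the synthetase, was lower again at 126 (208 with the protein-coding transcript), and *Gclc* exceeded it by 1.54 to 2.97 times. The reductase *Gsr* stood at 8804, or 4.66 to 14.9 times *Txnrd1*. The glutathione transferases were ordered *Mgst1* at 10196, *Gsto1* at 6250 and *Gstp1* at 4077 under all 4 definitions, although 52.8% of the windows of *Gstp1* are shared with other genes, most with its close copy *Gstp2*.

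The iron and metal binding genes took 69.1% of the summed level per kb of the 38. *Ftl1* and *Fth1*, the light and heavy chains of ferritin, had mean normalized counts of 450221 and 225883 and levels of 465105 and 109545 per kb. The ratio of light to heavy chain was 1.86 to 4.25. Of the windows of *Ftl1*, 78.6% occur in 6 other annotated genes, of which *Ftl1-ps1* shares most, so the *Ftl1* value is uncertain by the reads that those loci gained or lost. *Fth1* shared 0.408% of its windows, and 25 of the 38 members shared none. Windows were read from the longest transcript only and matched exactly. Where that transcript retains an intron, as for *Fth1*, windows across the spliced junction were not checked. A low share there does not show that reads were free of other loci. The metallothioneins *Mt1* and *Mt2* stood at 13952 and 4987, a ratio of 2.80 to 4.22, with 27.4% of the windows of *Mt2* shared with the annotated gene *Gm45774*, and *Hmox1*, the inducible heme oxygenase of the endoplasmic reticulum, at 5242.

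*Nfe2l2* stood at 4444 per kb, *Bach1* at 1644 and *Keap1* at 777. This order held for the 4 definitions of length, with *Nfe2l2* 4.10 to 5.72 times *Keap1* and at least 1.29 times *Bach1*. *Nqo1*, the quinone reductase that is a standard readout of NRF2 activity in other tissues, stood at 98.8 per kb, with a mean normalized count of 153 (percentile 29.5). It was the lowest of the 38 with the longest, the protein-coding and the median transcript, whereas with the coding sequence *Prdx4* was lower, at 168 against 187. *Hmox1*, another NRF2 and BACH1 target, exceeded *Nqo1* by 50.8 to 71.0 times. *Park7*, which encodes the oxidation-sensitive protein DJ-1, stood at 3968.

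**Figure D2:**
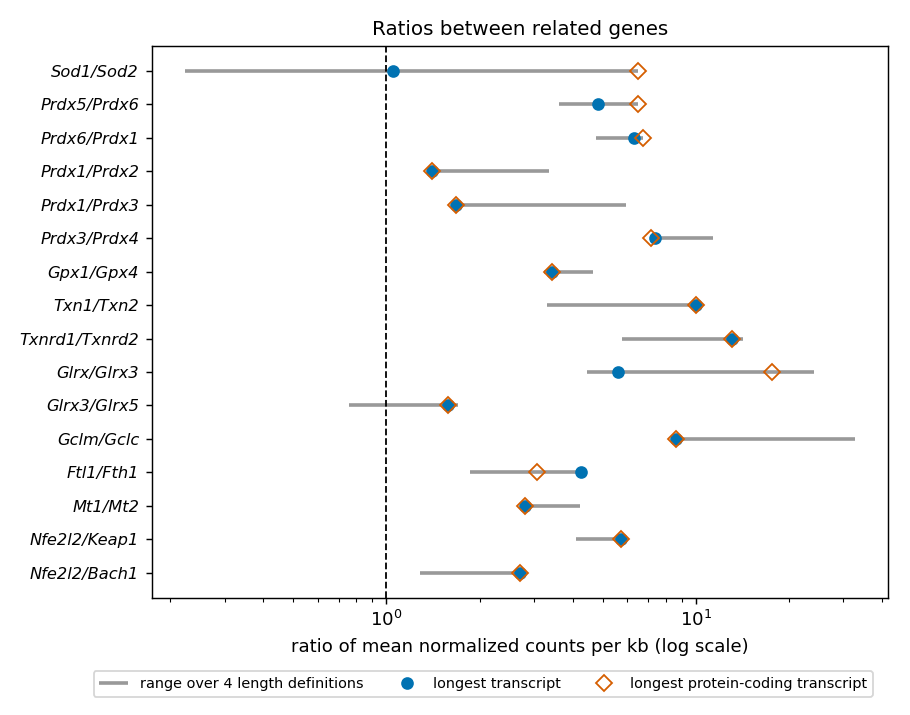
Ratio of the mean normalized counts per kb of related genes (log scale), with the longest transcript as filled points, the longest protein-coding transcript as open diamonds and grey lines over the 4 definitions of length. The lines of Sod1/Sod2 and Glrx3/Glrx5 cross the dashed line at a ratio of 1, and the other 14 do not.

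Separated by the place of the protein, 22 members are cytosolic and 6 mitochondrial (*Sod2*, *Prdx3*, *Txn2*, *Txnrd2*, *Glrx2* and *Glrx5*). The cytosolic genes had a median of 4023 per kb and a range from 98.8 to 465105. The mitochondrial genes had a median of 763 and a range from 130 to 2077, with 5 of 6 above the median gene, and the highest of them, *Txn2*, lay below the cytosolic median. The mitochondrial median was below the cytosolic one under the other definitions of length too, at 763 against 4532 with the longest protein-coding transcript, 1805 against 5792 with the median transcript and 3199 against 10719 with the coding sequence. With the median transcript *Sod2* at 14931 and *Txn2* at 6295 lay above the cytosolic median, and with the coding sequence *Sod2* did at 16232. The 6 mitochondrial genes together made up 0.688% of the summed level of the 38, and 2.04% once the ferritin genes were left out. Both shares depended on the length: with the median transcript they were 1.84% and 5.03%, with the coding sequence 1.61% and 4.02%, and with the longest protein-coding transcript 0.631% and 1.79%. The 3 genes whose proteins serve both places, *Prdx5*, *Gpx4* and *Gsr*, had a median of 16298 and 8.74% of the sum, and their values are not divided between the places. The 4 genes of peroxisomes and the endoplasmic reticulum had a median of 3610. Each gene was put in 1 set, although *Gpx1*, counted as cytosolic, and *Mgst1*, counted with the endoplasmic reticulum, are also known in mitochondria. The paper names SOD1 with SOD2 among mitochondrial scavengers of reactive oxygen species, while *Sod1* is counted here as cytosolic. The shares depend on where such genes are put. With the longest protein-coding transcript *Sod1* stood at 12011 per kb, against a sum of 6011 for the 6 mitochondrial genes. With the longest transcript these values were 1939 and 5968. The medians, sums and shares are descriptions over genes, which are not replicates, and no test was made.

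**Figure D3:**
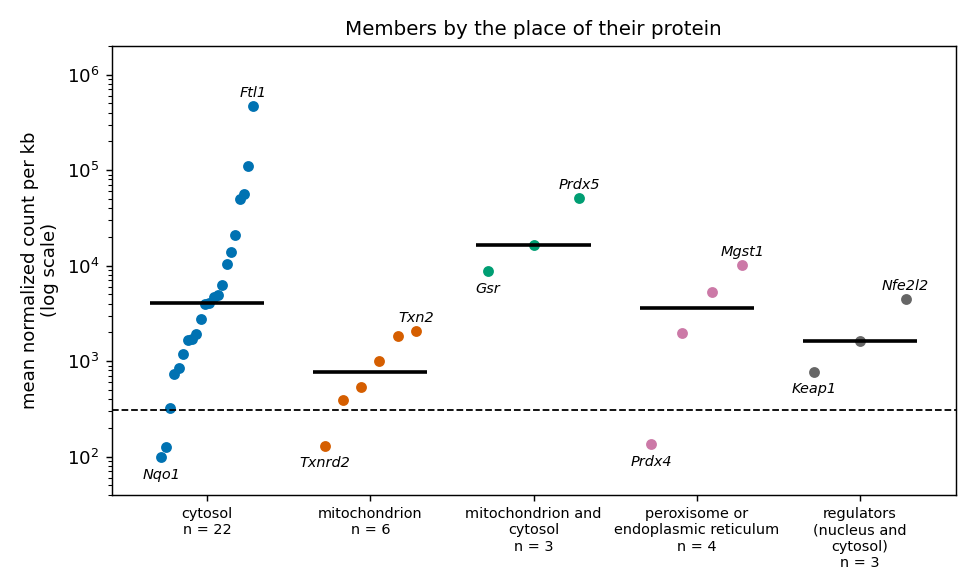
Mean normalized count per kb of the longest transcript (log scale) for each of the 38 genes, 1 point a gene, by the place of the protein, with the highest and lowest gene of each set named. Black bars are medians (4023 in the cytosol, 763 in mitochondria, 16298 for both) and the dashed line is the median gene at 309.

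NRF2 acts through antioxidant response elements, and the promoters of the members were searched for the core TGACNNNGC on either strand. In the RefSeq windows from 250 bases before to 50 after the start (GRCm38.p6), 8 of the 34 members with a window held it (23.5%), against 17.0% of the 9778 genes of the tables with a window and 14.0% of all 27025 genes with one. The sites of *Prdx1*, *Gclm*, *Txnrd1*, *Mt2* and *Sod1* are shown because these genes carry the peroxide, glutathione, thioredoxin, metal and superoxide steps described above. The core is in capitals and is read on the strand of the gene, so that it appears as GCNNNGTCA where it lies on the other strand. The first base of the core lies 133, 134, 92, 79 and 56 bases before the start of its window's transcript, in that order. A gene could have several windows, and the 34 members had 45. The *Txnrd1* site lies inside the annotated gene, which begins at 82833951, so its window belongs to a later start.
Prdx1 (chr4:116685456-116685484): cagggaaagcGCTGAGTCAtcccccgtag
Gclm (chr3:122245413-122245441): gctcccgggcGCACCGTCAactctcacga
Txnrd1 (chr10:82859104-82859132): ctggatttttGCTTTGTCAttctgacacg
Mt2 (chr8:94172529-94172557): aaagggggtgTGACTCAGCgcggggggtg
Sod1 (chr16:90220696-90220724): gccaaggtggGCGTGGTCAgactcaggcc

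The genes with a core did not stand at one level, since *Mt2* was at 4987 and *Txnrd1* at 1711 per kb. A match of these letters is a description of the sequence and not a measured binding site. *Nfe2l2*, *Mgst1* and *Srxn1* also held the core, that of *Srxn1* past the start. *Nqo1* had a window without it, and sequence outside the windows was not searched.

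Other redox genes were taken from a list of 44, of which 39 were in the tables and 38 had a length. Their median was 2401 per kb, near the 2417 of the members, with 32 of 38 above the median gene. Per kb of the longest transcript the 3 highest were *Cyba* at 74471, *Ncf1* at 45464 and *Rac2* at 34961, all parts of the NADPH oxidase, and *Ftl1* and *Fth1* were the members above *Cyba*. With the longest protein-coding transcript *Pgd*, an enzyme of the pentose phosphate pathway, moved above *Rac2* at 44477. On the first of these scales the 3 lowest were *Mgst3* at 156, *Gstz1* at 94.0 and *Gstk1* at 19.4, all glutathione transferases or their relatives. Genes of the pentose phosphate pathway, which supplies NADPH, stood at 26598 for *G6pdx*, 27072 for *Pgd*, 28101 for *Taldo1* and 34377 for *Tkt* per kb of the longest transcript.

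The cell type was checked on fixed marker lists. All 13 neutrophil markers were in the tables, from 11905 per kb for *Cxcr2* to *S100a9*, the highest of the genes with a length. All 6 genes of the progenitor stage were present as well, from *Kit* at 205 to *Prtn3* at 62605, with *Mpo* at 44276. Of these, 5 lay above the median gene. Of 6 markers of eosinophils, basophils or mast cells, 5 were in the tables, from 1764 for *Siglecf* to 320189 for *Prg2*, with *Epx* at 53097. Of 6 monocyte or macrophage markers 5 were in the tables (16.9 to 9881), of 4 lymphocyte markers 1, and none of the 3 dendritic cell or 4 erythroid markers. The part of these other cells or stages in the levels of the redox genes was not tested, and in bulk RNA more cells of a type and more RNA per cell cannot be told apart.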

How the data were processed

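mRNA libraries of cultured mouse neutrophils were grouped by their sample titles. Per the study's methods and the submitters' processing notes, the authors used cutadapt 4.4 for trimming and STAR 2.7.10b for alignment and quantification against mm10, and normalized and modelled the counts with DESeq2 1.26.0 and covariates from RUVSeq. The gene annotation and strand setting are not given in the sources used here. The deposited signal is baseMean, the authors' mean normalized count over all libraries. The other columns (log2 fold changes, standard errors, Wald statistics, p-values and labels made from them) are the authors' comparisons and were not used, so no test was made and the planned count model could not be run.

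baseMean was divided by transcript length in kb from GENCODE M21. Unique symbols gave a length for 12023 of 13091 genes (91.8%), all members included. Genes were ranked by this level. Exact windows of 100 bases of each member's longest transcript were compared with the annotated transcripts of other genes on both strands. Promoters were RefSeq windows. The ranking and motif code was tested on simulated data. Python 3.11.15, numpy 2.4.6, pandas 2.3.3 and matplotlib 3.10.9 were used. All members found in the tables are named, and the 3 highest and 3 lowest of the other redox genes, and others were chosen after seeing their values. The planned reading of protein sequences was not done. The members and lists were chosen with earlier results of these data known.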

Additional observations from a re-analysis of the deposited data

How the results depend on the processing

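The number of members above the median gene was 34 with the longest transcript, the median transcript or no correction for length, 33 with the coding sequence or the longest protein-coding transcript, and 32 against a background that starts at a baseMean of 100. The share of the mitochondrial genes in the summed level was 0.688% with the longest transcript, 0.631% with the longest protein-coding transcript, 1.61% with the coding sequence, 1.84% with the median transcript, 1.75% with no correction for length and 2.04% without *Fth1* and *Ftl1*, where no correction for length gave 4.31%. Ranks among the 38 members moved by at most 5 places for 36, 33, 29 and 30 genes with the longest protein-coding transcript, the median transcript, the coding sequence and no correction, and the largest moves were 12 places for *Sod1*, 11 for *Sod2*, 9 for both *Sod1* and *Sod2* and 14 for *Mt2*. The protein-coding transcript was added after the data were seen. No paired analysis was possible because the values are pooled over libraries, and leaving out a replicate could not be run for the same reason. Depth per library is unknown, and the levels carry no replicate error.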
